A study of Homo sapiens with 5 samples.

Results

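The genes encoding the proteins of the cytosolic ribosome were followed across 4 maps of DNA replication initiation in EJ30 cells, a human bladder carcinoma line. They were taken as all protein-coding genes of the GENCODE 44 annotation, chromosome Y left out, whose symbol begins with RPL or RPS and continues with the numbering of the large (RPL) or small (RPS) ribosomal subunit. This rule found 85 of 19970 protein-coding genes, of which 53 are RPL and 32 are RPS genes. They comprise 77 canonical genes and 8 paralogs, RPL3L, RPL7L1, RPL10L, RPL22L1, RPL26L1, RPL36AL, RPL39L and RPS27L. The rule uses no measured value, and all 85 genes have a MANE Select transcript, the reference transcript agreed between the main annotation projects.

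In ini-seq 2, nuclei isolated from EJ30 cells in late G1 phase after a mimosine block were incubated in vitro with cytosolic S100 extract of HeLa cells, a human cervical carcinoma line, and Br-dUTP, for 3 h or for 15 min. Copied DNA became heavy on 1 strand (HL), uncopied DNA stayed light (LL), and an origin carries at 3 h an efficiency, HL/(HL + LL), and at 15 min a Z-score that ranks origins within that list only. In SNS-seq, short nascent strands of 0.5–2 kb and of 2–4 kb were purified from EJ30 cells and sequenced, and peaks were called against genomic DNA, which was not analysed here. Each of the 4 conditions is 1 list of intervals, the 3-hour list pooling 2 replicates, so no spread between samples exists and no difference below was tested. The lists hold no read counts, so the depth behind each origin is unknown. Shares are given with exact Clopper-Pearson 95% intervals, which cover counting error only, and genes are not replicates. Coordinates are on hg38.

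Ribosomal proteins assemble with ribosomal RNA in the nucleolus into the small and large subunits, and their genes are among the most strongly transcribed in growing cells. Their mRNAs typically begin with a cytidine followed by a run of pyrimidines, the 5′ terminal oligopyrimidine (TOP) tract, through which growth signals control translation. Many of these genes host small nucleolar RNAs (snoRNAs) in their introns, and the human genome carries numerous processed copies of them. Replication origins of human cells often lie at GC-rich gene starts.

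Most of the 85 genes began with a pyrimidine tract. Such a tract, counted as C at the annotated start and at least 4 further pyrimidines, was found at 59 of 85 genes (69.4%), against 4.7% of the 19016 protein-coding genes with a MANE Select transcript. The starts of 8 genes on which the results below turn are shown from 10 bases before to 20 bases from the MANE Select start, each 5′ to 3′ on the strand of the gene, with the pyrimidine run that begins at the start in capitals. RPLP1, RPL14 and RPL13 had origins of high efficiency at 3 h, RPL11 and RPL12 the lowest efficiencies, RPS19 was found in all 4 lists, and RPS6 and RPL39 had no ini-seq 2 origin.
RPLP1, chr15:69452808-69452837, plus strand: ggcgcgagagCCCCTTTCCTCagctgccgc
RPL14, chr3:40457329-40457358, plus strand: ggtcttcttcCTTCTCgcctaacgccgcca
RPL13, chr16:89560672-89560701, plus strand: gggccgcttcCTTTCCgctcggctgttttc
RPL11, chr1:23691796-23691825, plus strand: gctccgctttCTCTTCCTgctctccatcat
RPL12, chr9:127451387-127451416, minus strand: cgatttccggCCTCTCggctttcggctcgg
RPS19, chr19:41860245-41860274, plus strand: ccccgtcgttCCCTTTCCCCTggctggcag
RPS6, chr9:19380217-19380246, minus strand: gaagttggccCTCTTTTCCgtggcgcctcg
RPL39, chrX:119791611-119791640, minus strand: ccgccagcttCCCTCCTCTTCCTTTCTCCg
The run at RPL39 was the longest of the set, at 19 bases. A 3-hour origin was called at 33 of the 59 genes with a tract (55.9%) and at 15 of the 26 without one (57.7%), so that both shares lay close together. Among the 835 other protein-coding genes with such a tract, 72.1% had a 3-hour origin. These other genes were longer, with a median of 28198 bp against 5548 bp for the 59, and the shares were not matched for length.

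The genes were described first by whether an interval of each list overlapped the gene or lay within 1 kb of its 5′ end. At 3 h an origin was found at 48 of 85 ribosomal protein genes (56.5%, 45.3–67.2%), against 66.2% of all protein-coding genes. At 15 min it was 20 of 85 (23.5%, 15.0–34.0%), against 46.6%. For SNS-seq it was 72 of 85 in the 0.5–2 kb fraction (84.7%, 75.3–91.6%, against 83.5%) and 75 of 85 in the 2–4 kb fraction (88.2%, 79.4–94.2%, against 84.7%). The share of all genes lay inside the counting interval of the ribosomal protein genes at 3 h and in both SNS-seq fractions. At 15 min it lay above that interval. In either fraction a peak was found at 78 genes (91.8%), against 87.7% of all.

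The subunits showed similar shares. A 3-hour origin was called at 30 of 53 RPL genes (56.6%) and 18 of 32 RPS genes (56.2%), and a 15-minute origin at 12 of 53 (22.6%) and 8 of 32 (25%). Of the paralogs, 5 of 8 had a 3-hour and 2 of 8 a 15-minute origin. The genes fell into few patterns over the 4 lists. All 4 lists marked 20 genes, the 3-hour list and both SNS-seq fractions 23, both SNS-seq fractions alone 26, and none of the lists 6. These patterns were counted for the ribosomal protein genes only. Every one of the 20 genes with a 15-minute origin also had a 3-hour origin, as did 9089 of the 9315 protein-coding genes with a 15-minute origin.

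Ribosomal protein genes are short, with a median length of 5548 bp against 27476.5 bp for all protein-coding genes, and a longer gene has more room for an interval. Among genes of at most 10 kb the 3-hour share was 54.8% for 62 ribosomal protein genes and 49.6% for 5115 protein-coding genes. This was the reverse order of the whole sets, whereas the 15-minute share stayed lower, at 22.6% against 31.0%. At both times the share of all genes of that length lay inside the counting interval of the ribosomal protein genes. At that length SNS-seq peaks were found at 79.0% (66.8–88.3%) against 65.3% in the 0.5–2 kb and 85.5% (74.2–93.1%) against 70.2% in the 2–4 kb fraction, so that the shares of all genes fell below the intervals. Counting origins within 5 kb of the gene also brought the 3-hour shares together, at 70.6% against 69.3%. Counted instead by whether the base of the 5′ end itself lay inside an interval, which gene length does not affect, 34 ribosomal protein gene starts (40.0%) were in a 3-hour origin against 42.7% of all, and 8 (9.41%) in a 15-minute origin against 26.8%. In SNS-seq the start was inside a 0.5–2 kb peak at 28 genes (32.9%, against 48%) and inside a 2–4 kb peak at 53 (62.4%, against 63.7%), and for either fraction together the share over all genes was 64.3%.

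**Figure D1:**
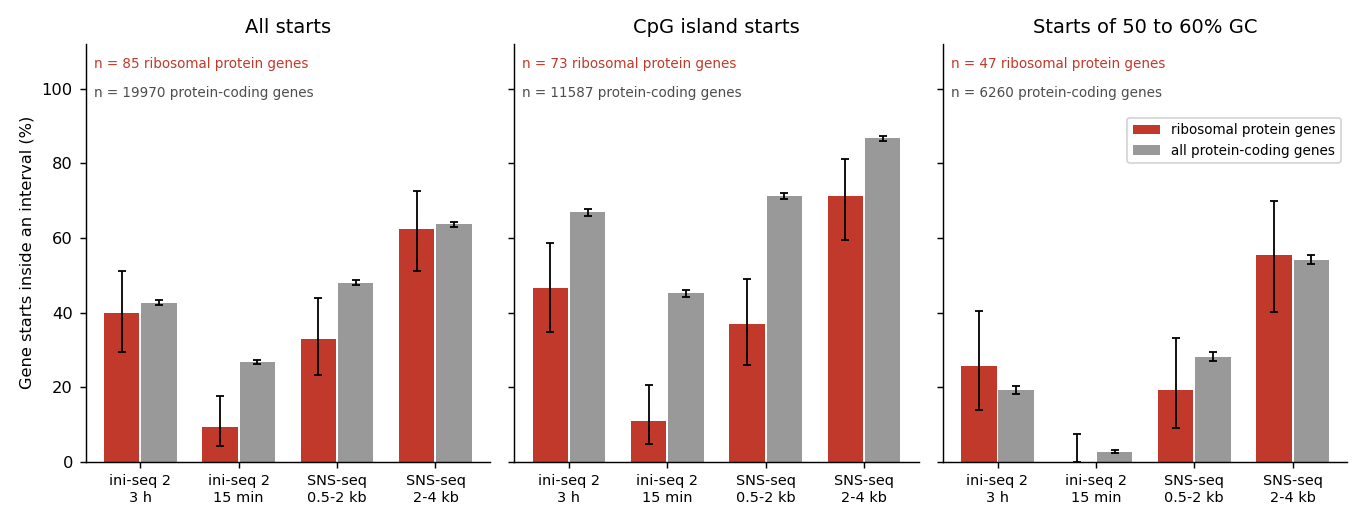
Share of gene starts (%) inside an interval of each of the 4 lists, for ribosomal protein genes and for all protein-coding genes, drawn for all starts, for CpG island starts and for starts of 50–60% GC, with Clopper-Pearson 95% intervals. For all starts the values of ribosomal protein genes and of all genes were 40.0 and 42.7% at 3 h but 9.41 and 26.8% at 15 min.

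The starts of ribosomal protein genes were CpG-rich but only moderately GC-rich. In the 1 kb centred on the 5′ end, 73 of 85 (85.9%) met a CpG island criterion, GC content above 50% and an observed to expected CpG ratio above 0.6, against 58% of all protein-coding genes. Their median GC content was 57.1%, below the 59.2% of all genes. Set beside all genes whose start met the same criterion, ribosomal protein genes had 3-hour origins less frequently (61.6% of 73 against 83.3% of 11587) and 15-minute origins less frequently (26% against 63.4%). At these CpG starts, 46.6% of ribosomal protein gene starts and 66.9% of all starts lay inside a 3-hour origin, and 11.0% and 45.1% inside a 15-minute origin. The SNS-seq shares at these starts were 37.0% and 71.3% in the 0.5–2 kb and 71.2% and 86.7% in the 2–4 kb fraction. The CpG starts of ribosomal protein genes had a lower median GC content, 58.9%, than all CpG starts, 63.9%. At CpG starts of 50–60% GC the shares inside a 3-hour origin were 27.3% of 44 (15.0–42.8%) and 31.2%, and those inside a 15-minute origin 0 of 44, which allows a share of up to 8.04%, and 4.69%.

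Origin calls rose with the GC content of the start. A 3-hour origin was found at 1 of 9 ribosomal protein genes whose start had under 50% GC, 5 of 15 at 50–55%, 16 of 32 at 55–60%, 13 of 16 at 60–65%, 11 of 11 at 65–70% and 2 of 2 at 70% or more. The same shares over all protein-coding genes were 29.7, 41.8, 64.1, 84.9, 93.0 and 95.4%. In every one of these bands the 3-hour share of all genes lay inside the counting interval of the ribosomal protein genes. Measures that gene length does not affect showed no deficit at 50–60% GC, where 25.5% of 47 ribosomal protein gene starts (13.9–40.3%) and 19.2% of all starts lay inside a 3-hour origin, and 40.4% and 40.8% of genes had one within 1 kb of the 5′ end. At 15 min the calls were more concentrated, with 0 of 9, 0 of 15, 4 of 32, 4 of 16, 11 of 11 and 1 of 2 genes in the same bands, against 18.4, 21.9, 28.6, 51.5, 82.5 and 96.1% of all genes. All 11 genes at 65–70% GC, among them RPL6, RPL13, RPL22, RPLP2, RPS19 and RPS21, had both a 3-hour and a 15-minute origin. RPL10, at 73.3%, had a 3-hour origin only. None of the 47 starts of 50–60% GC lay inside a 15-minute origin, which allows a share of up to 7.55%, and the share over all genes in that band was 2.60%.

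**Figure D2:**
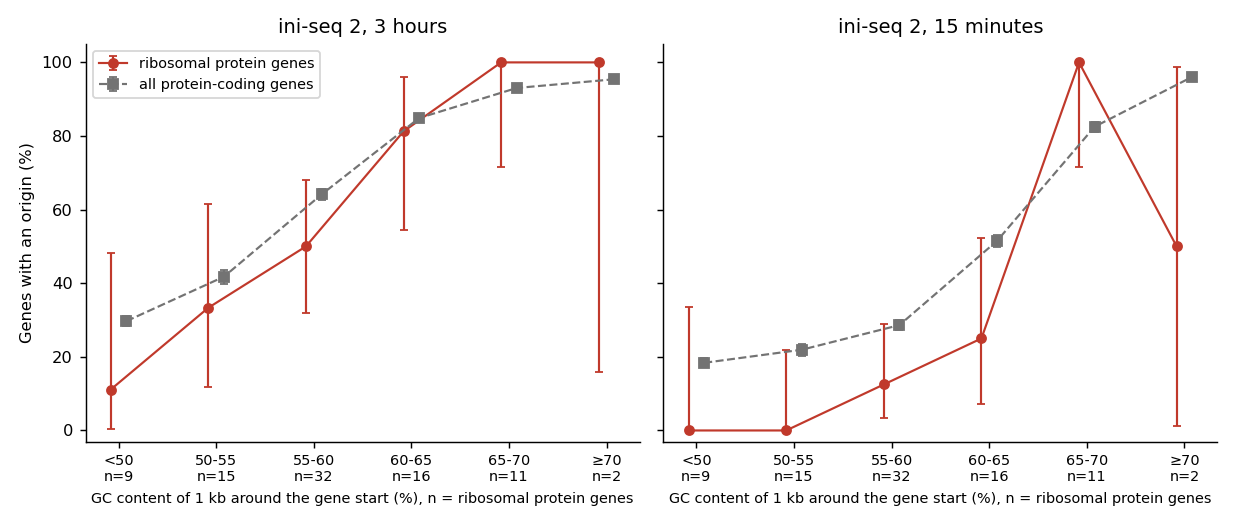
Share of genes (%) with a 3-hour origin (left) and a 15-minute origin (right) against the GC content (%) of the 1 kb around the gene start, for ribosomal protein genes, with the number in each band and Clopper-Pearson 95% intervals, and for all protein-coding genes. At 55–60% GC, 16 of 32 ribosomal protein genes had a 3-hour and 4 of 32 a 15-minute origin, and at 65–70% GC all 11 had both.

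No 3-hour origin was called at 37 ribosomal protein genes, and none of these had a 15-minute origin. From the large subunit they included RPL3, RPL4, RPL5, RPL19, RPL23, RPL23A, RPL24, RPL27, RPL28, RPL30, RPL31, RPL32, RPL34, RPL35A, RPL36A, RPL37, RPL37A, RPL39, RPL41, RPLP0 and the paralogs RPL7L1, RPL10L and RPL22L1. From the small subunit they included RPS4X, RPS6, RPS9, RPS12, RPS13, RPS14, RPS15A, RPS18, RPS24, RPS26, RPS27, RPS27A and RPS3A. Their starts had a median GC content of 55%, against 60.6% for the 48 with an origin, and no start among them exceeded 61.8%. A CpG start was present at 28 of 37 of them and at 45 of 48 of the others.

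Many of the genes without an origin had one nearby. The nearest 3-hour origin lay within 10 kb of the start for 13 of 37 (35.1%) and within 50 kb for 28 of 37 (75.7%), against 9.01% and 36.7% of the 6750 protein-coding genes without an origin. By definition none of these genes holds an origin, and their median length was 5643 bp, against 16586.5 bp. A longer gene thus leaves less of the distance downstream of its start open to an origin. The part of gene length in these shares was not tested. The closest origins were at RPL28, 1432 bp away with an efficiency of 0.930, RPL41, 1511 bp away with 0.859, and RPL23A, 1785 bp away with 0.929. The farthest were at RPL10L, the intronless testis paralog of RPL10 on chromosome 14, 1023720 bp away, and at RPL36A on chromosome X, 980324 bp away. RPL3, which reaches towards the peptidyl transferase centre, had its nearest origin 5012 bp from the start. For RPLP0, the base of the ribosomal stalk, the distance was 6135 bp, and for RPS6, the substrate of the S6 kinases, it was 28265 bp.

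The genes linked to Diamond-Blackfan anaemia, an inherited failure of red cell production caused by ribosomal protein mutations, gave different results among themselves. RPS19, the gene in which such mutations were first found, was marked in all 4 lists and had an origin of 1100 bp and efficiency 0.885 that held the gene start. RPL11, which with RPL5 and 5S ribosomal RNA forms the particle that binds MDM2, had the least efficient origin of the set, 0.801, in an interval of 300 bp at chr1:23691901-23692200 that lay wholly in an intron. RPL5 and RPS26 had no origin in either reaction, their nearest lying 46613 and 20051 bp from the start. RPL5 and RPS26 had 1 peak each in both SNS-seq fractions, and none of these held the start.

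Efficiency was described for the best origin of each gene. Over the 48 ribosomal protein genes with an origin the median was 0.880 (interval of the median 0.861–0.897, quartiles 0.846 and 0.910), against 0.916 over 13220 protein-coding genes with an origin. A longer gene has more room for origins to choose the best from. Among genes of at most 10 kb the medians were 0.880 for 34 ribosomal protein genes and 0.897 for 2537 protein-coding genes. For the origin nearest to the 5′ end, at genes of any length, they were 0.877 and 0.910. The part of gene length was not tested. When all 3-hour origins were split into 3 classes of equal size, with limits at 0.842 and 0.907, the best origin was of high efficiency at 13 genes, medium at 24 and low at 11. A high efficiency origin was thus present at 13 of 85 genes (15.3%, 8.40–24.7%), against 38.1% of all protein-coding genes, without matching for gene length. It was present at 11 of 53 RPL genes (20.8%) and 2 of 32 RPS genes (6.25%), RPS15 at 0.941 and RPS21 at 0.933.

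Best efficiency and start GC content had a Pearson r of 0.24 and a Spearman rho of 0.30 over 13220 protein-coding genes, and the class of the ribosomal protein genes depended on how GC content was treated. When the classes were formed within 10 groups of origins of similar GC content, 34.1% of ribosomal protein genes had a high efficiency origin, against 34.9% of all protein-coding genes, a difference smaller than the counting interval. Taken origin by origin, 30 of the 54 origins at ribosomal protein genes (55.6%) were in the high class of their GC group, 19 (35.2%) in the medium and 5 (9.26%) in the low class. The 19053 origins at protein-coding genes had 34.6, 33.2 and 32.2% in these classes. On the plain classes the order was the other way round, with 24.1% of the 54 origins high, against 37.6%. The share of genes with a high efficiency origin on the plain classes was also lower at starts of 50–60% GC. It was 8.51% of 47 ribosomal protein genes there, against 22.5% of all protein-coding genes, again without matching for gene length. The 54 origins had a median GC content of 65.3%, against 67.6%, and across the 48 genes the best efficiency and the GC content of the start had a Pearson r of 0.28 and a Spearman rho of 0.32, as a description across genes of 1 list.

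The most efficient origin of the set was at RPLP1, a P protein of the lateral stalk that recruits elongation factors. It measured only 300 bp, at chr15:69453001-69453300, with an efficiency of 0.966, and lay 187 bp downstream of the gene start, over 20 bases of coding sequence and 280 bases of intron. It was not called at 15 min and held no G-quadruplex (G4) motif. The next were RPL7 at 0.955, RPL36 at 0.954, RPL6 at 0.953, RPL14 at 0.945 and RPL13 at 0.944. All 6 of these genes encode proteins of the large subunit, and all but RPLP1 and RPL14 also had a 15-minute origin.

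The origin assigned to a gene was not always at its principal start. The MANE Select start lay more than 1 kb from the gene start at 9 of 85 genes. Of the 54 origins, 36 held the MANE Select start of their gene, 17 held the start of another protein-coding gene, and 6 held only the latter. The other genes among the 17 include RPL17-C18orf32 at RPL17 and RPS10-NUDT3 at RPS10, both annotated on the same strand. These counts were made for the ribosomal protein genes only, so whether such sharing is unusual is unknown. The RPL6 origin, chr12:112418701-112419700, held the start of PTPN11, which encodes the phosphatase SHP2, and lay 9096 bp from the MANE Select start of RPL6. The RPL7 origin held the start of RDH10, a retinol dehydrogenase gene, and lay 368 bp from that of RPL7. The most efficient RPL36 origin, chr19:5686501-5687900, lay 2395 bp from the MANE Select start. Of the 13 high efficiency origins at ribosomal protein genes, 6 held the own MANE Select start and 5 held another coding start. Counting only origins within 1 kb of the MANE Select start, 46 of 85 genes (54.1%) had a 3-hour origin, against 59.5% of all genes with such a transcript. The share with a high efficiency origin was then 11.8%, against 33.3%, and the median best efficiency 0.877, against 0.915.

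The lowest efficiencies stood near the limit of 0.8 at which the authors called origins. After RPL11 came RPL12 at 0.806, a protein of the stalk base, RPL13A at 0.814, RPS16 at 0.820, RPL9 at 0.822 and the paralog RPL26L1 at 0.824. None of these 6 genes had a 15-minute origin. The RPL12 origin, chr9:127450701-127452500, was among the longest of the set at 1800 bp and held the opposite start of LRSAM1, a ubiquitin ligase gene. RPSA, the small subunit protein also known as a laminin receptor, had an efficiency of 0.888, and RPLP2, the partner of RPLP1, stood at 0.907, just on the medium side of the class limit.

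**Figure D3:**
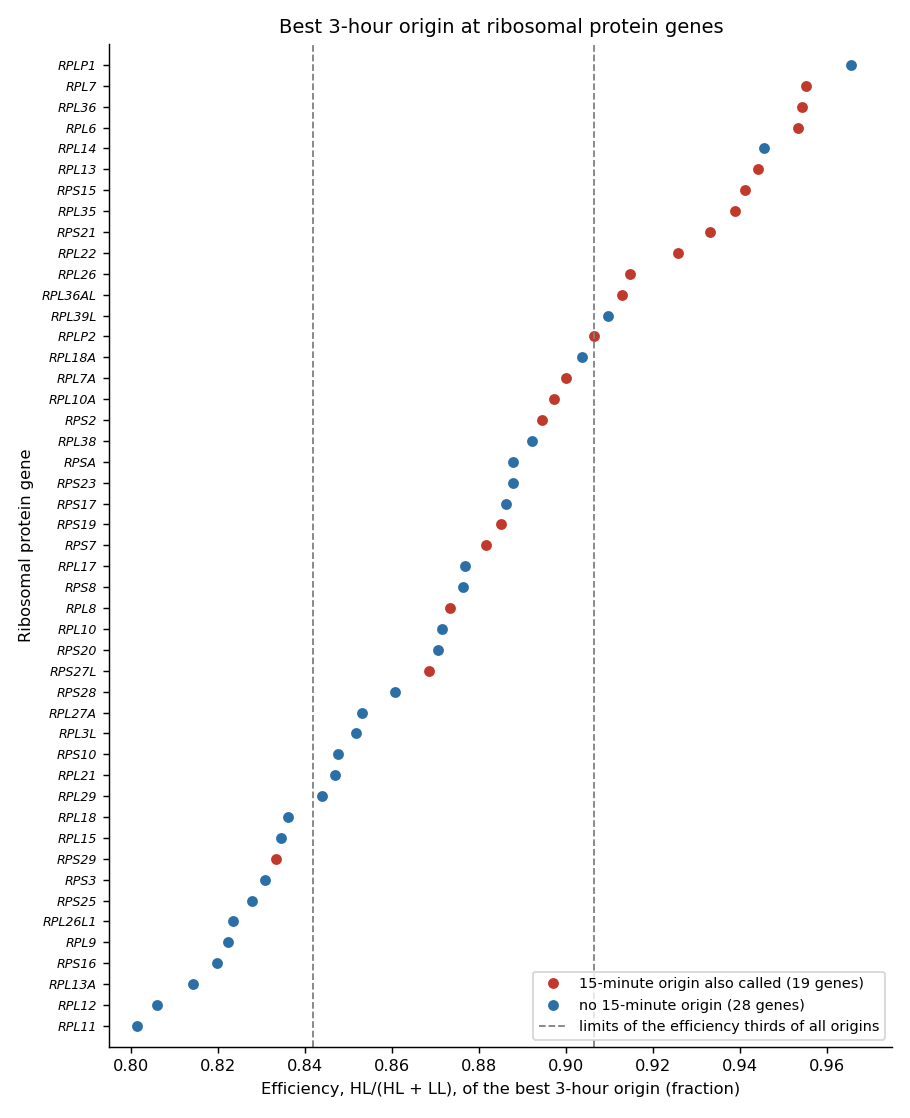
Efficiency, HL/(HL + LL), of the best 3-hour origin (fraction, horizontal axis) for 47 of the 48 ribosomal protein genes that have one, 1 point per gene, coloured by whether a 15-minute origin was also called, with dashed lines at the class limits of 0.842 and 0.907. Efficiencies run from 0.801 at RPL11 to 0.966 at RPLP1, and most points lie below the upper limit.

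RPL36 and RPL22 were the only genes of the set with 3 or more 3-hour origins. RPL36, a large subunit gene whose annotated start lies far upstream of its MANE Select start, had 4, with efficiencies of 0.828, 0.848, 0.954 and 0.825. The last of these, chr19:5690101-5692600, was the longest origin of the set at 2500 bp and the one that held the MANE Select start, while the second, of 2000 bp, held the starts of HSD11B1L and MICOS13. RPL22, whose protein also binds viral and cellular RNAs, had 3, with 0.845 at the MANE Select start, 0.926 over the start of RNF207 and 0.859 over the gene start. At RPS15, which had 2, the origin over the start had an efficiency of 0.941 and a second one, 1305 bp from the MANE Select start and inside an intron, 0.813. The other long origins were those of RPL8, at 2300 bp, and of RPL7 and RPL12, at 1800 bp each. At RPL3L, RPL10, RPL39L and RPL36 no origin came within 1 kb of the gene start, but at each an origin held the MANE Select start or, for RPL10, a protein that joins the large subunit late, lay 377 bp from it.

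Among the paralogs, RPL36AL had an efficiency of 0.913 in an origin shared with the start of MGAT2, and RPL39L, the germ cell counterpart of RPL39, 0.910. RPS27L, a p53-inducible relative of RPS27, stood at 0.869, RPL3L, the striated muscle form of RPL3, at 0.852, and RPL26L1 at 0.824. RPL36AL and RPS27L were the paralogs with a 15-minute origin. RPL7L1, RPL10L and RPL22L1 had no origin in either reaction. RPL39 had no origin while RPL39L had one, RPL36A had none while RPL36AL had one, RPL3 had none while RPL3L had one, and RPS27 had none while RPS27L had one. In the reverse direction RPL7, RPL10 and RPL22 had an origin and their paralogs had none, and RPL26 and RPL26L1 both had one.

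The 15-minute reaction marked 20 of the 48 ribosomal protein genes with a 3-hour origin (41.7%, 27.6–56.8%), against 68.8% of all protein-coding genes with one. The starts of these 20 had a median GC content of 65.7%, against 56.8% for the 28 genes with a 3-hour origin alone, and their median best efficiency was 0.910, against 0.852. Their best Z-score had a median of -0.52, against 0.19 over 9315 protein-coding genes, so that within the 15-minute list these origins ranked low. RPS29 had the highest, 2.05, although its 3-hour origin had an efficiency of only 0.833. Its 15-minute origin, chr14:49599601-49599900, did not overlap the 3-hour one, which held the start of LRR1 and lay 11821 bp from the MANE Select start of RPS29. RPL7 followed with 1.19 and RPL6 with 0.87, and RPLP2 had the lowest, -2.05. Over the 20 genes the best efficiency and the best Z-score had a Pearson r of -0.04 and a Spearman rho of 0.05.

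Where both reactions marked the same place, the 3-hour interval was longer in nearly every case. There were 21 overlapping pairs at ribosomal protein genes, and in 20 of them the 3-hour origin was the longer, with medians of 600 bp at 15 min and 1100 bp at 3 h and a median ratio of 1.67. In 19 pairs the 15-minute interval lay wholly inside the 3-hour one. The largest gains were at RPL36, from 400 to 2000 bp, and RPL8, from 500 to 2300 bp. RPS2 was the exception, with 1000 bp at 15 min and 600 bp at 3 h. Such pairs were measured here for the ribosomal protein genes only. The authors reported that origins common to both reactions were larger after the longer incubation, so the direction is not particular to these genes. Whether its extent differs at ribosomal protein genes was not tested.

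The position of the origins was read relative to the gene start in the direction of transcription. Of the 54 origins, 44 came within 1 kb of the start. The start lay inside 34 of these 44 (77.3%), close to the 76.8% of all protein-coding genes with an origin that near, and 30 (68.2%) had their centre downstream, against 77.0%. Of these 30, 9 lay wholly downstream, as at RPLP1, RPL14 and RPL11. Among the 44 only the RPL26 origin, chr17:8383301-8384000, lay wholly upstream. The origin nearest to the start had a median length of 600 bp, against 900 bp, and its centre lay at a median of 147.5 bp downstream, against 263 bp. The 44 origins took 58.6% of their bases from upstream of the MANE Select start, 31.9% from introns, 5.13% from UTRs and 4.35% from coding sequence, and 31 of them covered the whole of exon 1. Bases and exons were counted for the ribosomal protein genes only.

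**Figure D4:**
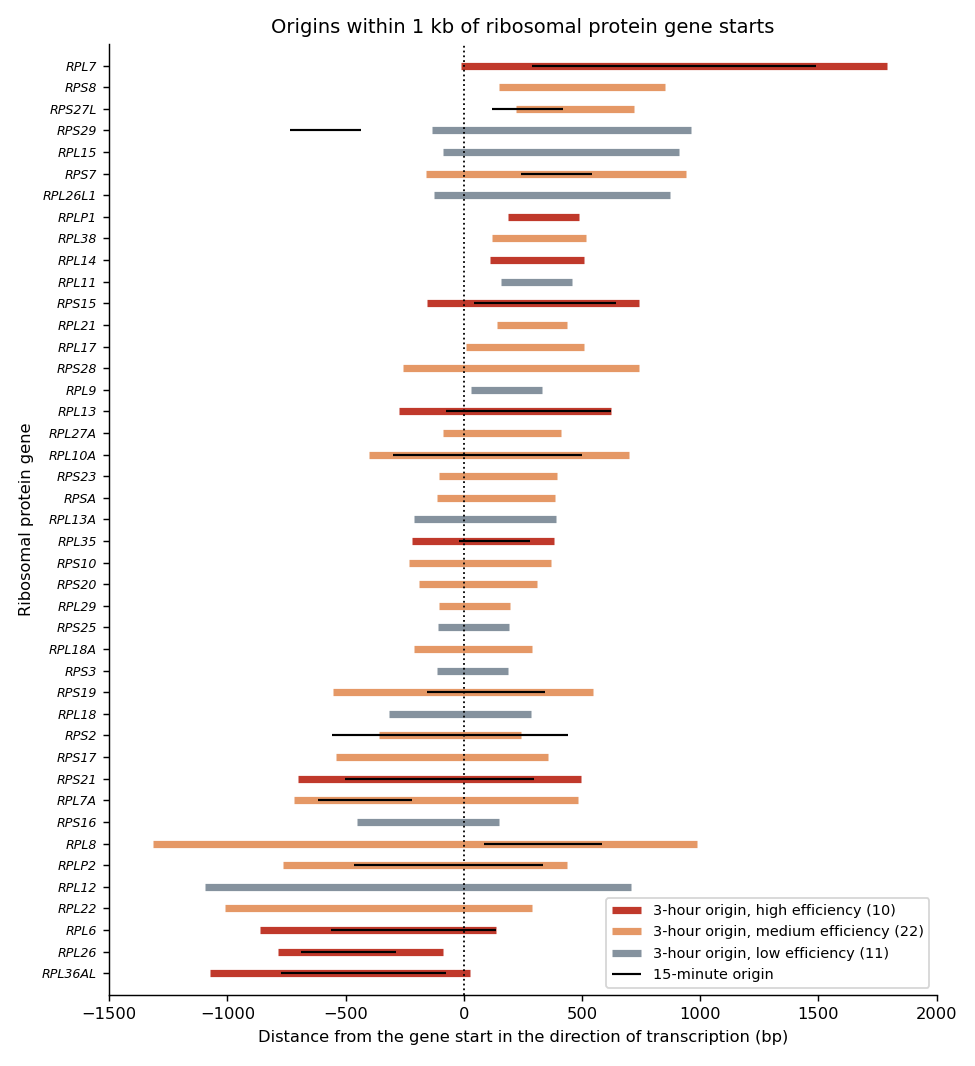
The 3-hour origins within 1 kb of ribosomal protein gene starts, 43 of the 44, 1 row per origin, as bars coloured by efficiency class against the distance from the gene start in the direction of transcription (bp), with 15-minute origins as thin black lines. Most bars cross the start, 9 lie wholly downstream and that of RPL26 wholly upstream.

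Coverage by 3-hour origins fell off within 1 kb of these starts. The share of genes covered by a 3-hour origin peaked 150 bp downstream of the start, at 43.5% for ribosomal protein genes and 45.2% for all protein-coding genes. Upstream both fell in the same way, to 12.9% and 14.7% at 500 bp. Downstream the sets parted, with 21.2% against 35.4% at 500 bp and 1.18% against 15.8% at 1000 bp. At starts of 50–60% GC they lay closer at 500 bp, with 17.0% of 47 ribosomal protein genes and 19.2% of 6260 protein-coding genes. At 1000 bp these shares were 2.13% and 11.6%. At 15 min the ribosomal protein genes peaked at 14.1%, 250 bp downstream, and all genes at 29.3%, 150 bp downstream. Coverage by 0.5–2 kb SNS-seq peaks was highest 400 bp downstream of ribosomal protein gene starts, at 42.4%, and lower at the start itself, 32.9%, with a second rise to 36.5% at 150 bp upstream. Over all genes it was 50.1% at its highest, 200 bp downstream, and 48.0% at the start. In the 2–4 kb fraction the highest value for ribosomal protein genes was at the start, 62.4%.

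**Figure D5:**
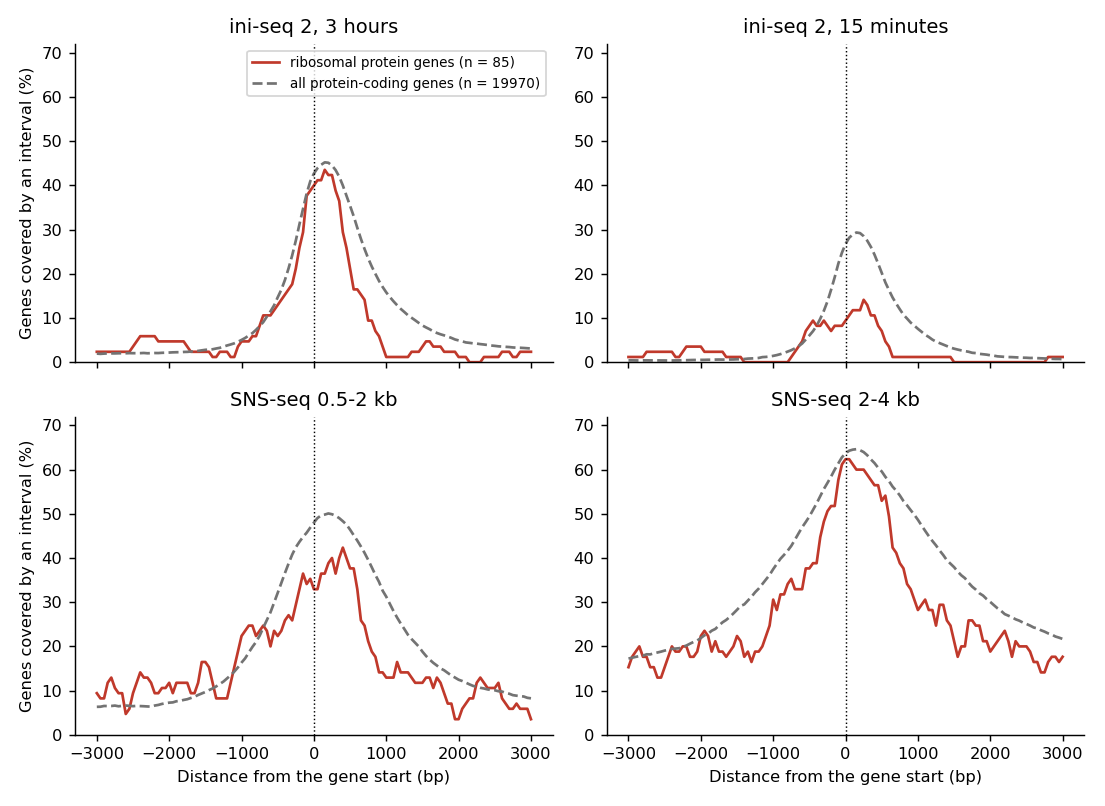
Share of genes (%) covered by an interval of each list, 1 panel per list, against the distance from the gene start (bp) in the direction of transcription, for ribosomal protein genes and for all protein-coding genes. The 3-hour curves meet near their peaks (43.5 and 45.2%) and part downstream, and the 0.5–2 kb SNS-seq curve of ribosomal protein genes is lower at the start (32.9%) than 400 bp downstream (42.4%).

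The SNS-seq lists, which hold 147529 and 184832 peaks against 23905 and 10181 origins, marked 78 of 85 ribosomal protein genes (91.8%) in either fraction, near the 87.7% of all protein-coding genes. No peak of either fraction was found at RPL21, RPL22L1, RPL34, RPL35A, RPL10L, RPS3A or RPS27A, whose product is made as a fusion to ubiquitin. Of these only RPL21 had an ini-seq 2 origin, of 300 bp and efficiency 0.847. Of the 37 genes without a 3-hour origin, 31 had a peak in at least 1 fraction (83.8%, 68.0–93.8%), against 64.4% of all protein-coding genes without one. The 2 sets were not matched for start sequence. Median start GC content was 55% for the 37 against 51.2%, and the median observed to expected CpG ratio 0.764 against 0.339. The start of 2 of these 37 (5.41%) was inside a 0.5–2 kb peak and of 12 (32.4%) inside a 2–4 kb peak, against 26 of 48 (54.2%) and 41 of 48 (85.4%) for genes with a 3-hour origin. Over all protein-coding genes the shares were 13.0% and 24.2% without, and 65.9% and 83.8% with, a 3-hour origin. Read from the origins, 44 of 54 (81.5%) overlapped a 0.5–2 kb peak and 52 of 54 (96.3%) a 2–4 kb peak, against 82.7% and 94.3% of the 19053 origins at protein-coding genes.

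G4 motifs, 4 runs of at least 3 guanines with loops of 1 to 7 bases on either strand, were found in 34 of 54 origins at ribosomal protein genes (63.0%, 48.7–75.7%), against 73.2% of the origins at protein-coding genes. The motifs in the origins of RPL14, RPS21 and RPL7A show the range from long to short loops. Each is printed 5′ to 3′ on the strand that carries it, with the guanine runs in capitals.
RPL14, chr3:40457682-40457708, plus strand: GGGagctggcGGGcgttGGGaaccGGG
RPS21, chr20:62387203-62387227, plus strand: GGGGGacGGGGtgcGGGGtgctGGG
RPL7A, chr9:133347852-133347870, minus strand: GGGagtGGGGGtGGGtGGG
RPL36 held the most in 1 origin, 5 in its longest one, a number shared by the RPL7 origin. The high efficiency origins of RPLP1, RPL13, RPL26 and RPL35 held none.

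Other features of the genes were set beside the calls. A snoRNA gene lay inside 28 of 85 ribosomal protein genes (32.9%), against 1.28% of all protein-coding genes. Of these 28 hosts 15 had a 3-hour origin, 4 a 15-minute and 1 a high efficiency origin, whereas of the 57 without a snoRNA 33, 16 and 12 did. Among the 228 other protein-coding snoRNA hosts 74.6% had a 3-hour and 51.3% a 15-minute origin. Those hosts had a median length of 65843 bp, against 5228.5 bp for the 28, and the shares were not matched for length. A protein-coding gene started on the opposite strand within 1 kb upstream of 12 ribosomal protein genes (14.1%), against 8.56% of all. A 3-hour origin was called at 10 of these 12, at RPL7A with MED22, RPL18 with SPHK2, RPL35 with ARPC5L, RPLP2 with PIDD1, RPS16 with SUPT5H and RPS25 with TRAPPC4 among them, and at 38 of the other 73. Over all genes with such a neighbour the share was 78.2%.

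Promoters of 68 of the 85 genes were matched by symbol in RefSeq (GRCh38.p14), each from 250 bases before to 50 bases after the start, and were searched on both strands beside all 15315 promoters matched. The letters CCGGAAGT, a core bound by ETS factors, were present in 11 of 68 (16.2%, against 6.33%), AAGATGGC, a YY1 core, in 7 (10.3%, against 3.98%) and the palindromic CGCG element bound by BANP in 4 (5.88%, against 0.692%), at RPL17, RPL26, RPS19 and RPS6. GGGCGG, the GC box, was present in 37 (54.4%, against 59.2%), CCAAT in 23 (33.8%, against 36.6%), TATAAA in 7 (10.3%, against 9.64%) and the palindromic NRF1 motif in 1, at RPL10A. CCGGAAGT was found in 4 of 38 promoters of genes with a 3-hour origin and 7 of 30 without, and GGGCGG in 21 of 38 and 16 of 30. A match is a stretch of letters and does not show binding.

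Other genes of the translation machinery were counted in the same way. FAU, whose product is a ribosomal protein fused to a ubiquitin-like part and whose symbol escapes the rule, had a 3-hour origin with an efficiency of 0.804 and no 15-minute origin. Of 78 mitochondrial ribosomal protein genes, 60.3% had a 3-hour, 32.1% a 15-minute and 21.8% a high efficiency origin. For 36 translation factor genes the shares were 77.8, 38.9 and 30.6%, and for 27 ribosome assembly factor genes 63.0, 29.6 and 33.3%. All of these 15-minute and high efficiency shares were above the 23.5% and 15.3% of the cytosolic ribosomal protein genes and below those of all protein-coding genes, and their intervals overlapped those of the cytosolic ribosomal protein genes. Gene length was not matched. The median was 11940.5 bp for the mitochondrial set, 22679.5 bp for translation factors and 22381 bp for assembly factors, against 5548 bp for the cytosolic set.

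Since the authors kept uniquely aligned reads and these genes have processed copies, the share of 50-base words that occur once in hg38 was computed, 50 bases being the read length. In the 1 kb around the start the median share was 100%, over whole genes 92.9% and over the MANE Select exons 71.8%, with exons ranging from 0 at RPL21 to 100%. The exon median was 73.3% for genes with and 71.4% for genes without a 3-hour origin. RPL10 had the least unique start window, 5.26%, and its origin, near the MANE Select start, 100%. The 54 origins themselves had a median of 100% and a minimum of 79.1%, at RPL26L1.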

How the data were processed

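The 4 deposited interval lists were read as given, on hg38. Per the submitters' processing notes and the methods, the authors aligned 50 nt reads with Bowtie2 and kept unique alignments. For ini-seq 2 they compared the HL with the LL coverage in windows of 100 bp, joined windows with a log2 ratio of at least 2 lying within 500 bp, and kept intervals with an efficiency of at least 0.8. The value deposited by the authors for an origin is a fraction, HL/(HL + LL), at 3 h and a score, a Z-score over that list, at 15 min. SNS-seq peaks, called with MACS2, were deposited as positions only. The number of replicates behind the 15-minute list is not given in the sources used here. Depth per interval is unknown.

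Genes were the protein-coding genes of GENCODE 44 on chromosomes 1 to 22 and X. The symbol pattern was RPL or RPS followed by A, or by an optional P, a number, an optional letter and number, and an optional L. An overlap needed 1 bp. Efficiency classes are 3 equal parts of all 3-hour origins. The members, lists and most alternatives were chosen with earlier results of these data known. A few members are not reported here by name. Members named with values are those without a 3-hour origin, those with a 15-minute but no 3-hour origin (there were none), the 6 highest and 6 lowest efficiencies, those with at least 3 origins or none within 1 kb of the 5′ end, the 4 longest origins with ties, those without an SNS-seq peak, the paralogs, RPS19, RPL5, RPL11, RPS26, RPLP0, RPLP1, RPLP2, RPSA, RPL3 and RPS6. Genes named elsewhere by a motif, a GC band, a Z-score or an opposite start were chosen after their values were seen. Motif and uniqueness searches were tested on simulated sequence. Alternatives were other distances, thresholds, starts, members and background genes. Shares carry exact Clopper-Pearson 95% intervals. The interval of the median efficiency is the binomial one over genes. Scripts ran in Python 3.11.15. Tables were handled with pandas 2.3.3, arrays with numpy 2.4.6, intervals of shares with scipy 1.17.1 and plots with matplotlib 3.10.9.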

Additional observations from a re-analysis of the deposited data

How the results depend on the processing

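Of 68 alternatives to 11 results, 54 moved the value by less than its counting interval and 14 moved it by more. Values are given for ribosomal protein genes, with all protein-coding genes in parentheses. Counting intervals within 5 kb of the gene raised the share with an interval to 70.6% (69.3%) at 3 h, 34.1% (50.5%) at 15 min and 92.9% (87.0%) for SNS-seq of 0.5–2 kb. Stricter lists lowered it to 18.8% (41.1%) for efficiencies of at least 0.9, 4.71% (26.5%) for Z-scores of at least 0, and 76.5% (77.4%) for 2–4 kb peaks also found in the other fraction. The 0.5–2 kb share was 70.6% (65.4%) within 1 kb of the 5′ end alone. The share with a high efficiency origin was 34.1% (34.9%) with classes formed within 10 GC groups and 4.71% (14.8%) with classes of the origins of at least 0.9. Chosen after seeing the data, the MANE Select start alone gave 74.1% (68.2%) for 0.5–2 kb peaks. Starts of 50–60% GC, chosen likewise, gave a best efficiency of 0.848 (0.893), and shares of starts inside an interval of 25.5% (19.2%) at 3 h, 0% (2.60%) at 15 min and 19.1% (28.2%) for 0.5–2 kb peaks. Leaving out the paralogs moved none of the results past its interval. No paired analysis was possible because each condition is 1 list and no result comes from a replicated test. Without counts, an interval just under the authors' limit cannot be told apart from one with no signal, and the share of unique sequence, short gene length and GC content were described beside the results, but their part in them was not tested.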
